A study of Mus musculus with 3 samples.

Results

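Small nucleolar RNA (snoRNA) host genes are described here in 3 bulk RNA-Seq libraries of E10.5 mouse maxillary processes. The 10 genes *Gas5*, *Snhg1*, *Snhg3*, *Snhg5*, *Snhg6*, *Snhg8*, *Snhg11*, *Snhg12*, *Snhg15* and *Snhg18* were taken by their GENCODE M21 gene name, and all 10 were found among the 55401 genes listed. Each library came from *Wnt1cre; Rosa26Dlx2/-* embryos, where Cre under *Wnt1* control, active in the neural crest and in part of the neural tube, acts on a *Rosa26* allele (CAG-LSL-Dlx2-3xFlag) so that *Dlx2* is made in excess. The libraries, named OE for overexpression, share genotype, stage and tissue, and are called replicates 1, 2 and 3, which is a name and not an order. Libraries of wild-type embryos were not analysed here. No difference between genotypes was tested, and every comparison is between libraries of 1 group. The labels speak of independent RNA samples and do not say how many embryos went into each, so the spread between replicates may be partly technical.

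A snoRNA host gene is transcribed and spliced like a messenger RNA gene, but much of its product lies in the introns. Exonucleases trim the excised introns down to the snoRNAs, which a core of proteins protects. Box C/D snoRNAs pair with ribosomal RNA and guide methylation of the ribose, with fibrillarin as the enzyme. Box H/ACA snoRNAs guide the change of uridine to pseudouridine, with dyskerin as the enzyme, and a few of both classes are needed to cut the ribosomal precursor. The spliced exons of the noncoding hosts encode no conserved protein. Many of these RNAs begin with a run of pyrimidines, as ribosomal protein mRNAs do, and are removed by nonsense-mediated decay when ribosomes read them.

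GENCODE M21 places 33 annotated snoRNA genes inside the 10 hosts on the same strand. Of these, 10 lie in *Gas5*, 8 in *Snhg1*, 5 in *Snhg12*, 2 each in *Snhg3*, *Snhg5* and *Snhg11*, and 1 each in *Snhg6*, *Snhg8*, *Snhg15* and *Snhg18*. Box motifs were searched by letters on the sense strand only: TGATGA, the core of box C, beginning in the first 15 bases, CTGA, box D, beginning in the last 14 bases and after box C, and ACA beginning in the last 8 bases. Both C and D letters stood in 18 of the 33 snoRNA genes, and D alone in 5. Of those without C or D letters, 9 held ACA near the end, and 1 (*Snora44*) held none of the motifs. Over all 1507 annotated snoRNA genes, 20.1% held both C and D, and 43.5% held ACA with neither C nor D. *Gas5*, *Snhg1*, *Snhg5*, *Snhg6* and *Snhg18* held snoRNA genes with C and D or D letters only, *Snhg3*, *Snhg8*, *Snhg11* and *Snhg15* held only the ACA kind, and *Snhg12* held both kinds. The sequences below are the 8 snoRNA genes inside the hosts with a mean count of at least 10, from *Gas5* and *Snhg1*, with *Snora24* of *Snhg8* as an example of the ACA kind. They are GENCODE M21 transcripts (GRCm38), 5′ to 3′, with box letters in capitals.
Gm26224 in *Gas5* (chr1:161035394-161035473, plus strand): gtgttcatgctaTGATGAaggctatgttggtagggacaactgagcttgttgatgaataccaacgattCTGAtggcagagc
Gm22357 in *Gas5* (chr1:161036057-161036139, plus strand): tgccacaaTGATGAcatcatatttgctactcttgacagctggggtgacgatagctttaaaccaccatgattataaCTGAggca
Gm23212 in *Gas5* (chr1:161036682-161036741, plus strand): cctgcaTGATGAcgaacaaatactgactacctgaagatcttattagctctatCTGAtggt
Snord78 in *Gas5* (chr1:161036984-161037049, plus strand): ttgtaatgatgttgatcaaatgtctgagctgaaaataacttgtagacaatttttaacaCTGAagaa
Snord47 in *Gas5* (chr1:161038082-161038158, plus strand): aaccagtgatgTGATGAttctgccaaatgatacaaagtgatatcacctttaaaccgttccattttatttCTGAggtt
Gm24453 in *Snhg1* (chr19:8724868-8724943, plus strand): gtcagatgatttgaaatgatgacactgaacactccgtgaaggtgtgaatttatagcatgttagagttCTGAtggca
Gm22680 in *Snhg1* (chr19:8725341-8725409, plus strand): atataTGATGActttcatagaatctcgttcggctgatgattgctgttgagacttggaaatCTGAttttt
Gm23246 in *Snhg1* (chr19:8725594-8725660, plus strand): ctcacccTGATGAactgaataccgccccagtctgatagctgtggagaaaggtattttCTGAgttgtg
Snora24 in *Snhg8* (chr3:123507937-123508066, minus strand): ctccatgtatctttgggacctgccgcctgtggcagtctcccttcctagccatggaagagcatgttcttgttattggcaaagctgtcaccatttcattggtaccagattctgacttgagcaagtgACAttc

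The starts of the hosts were read from RefSeq promoter sequences (GRCm38.p6), which hold 9 of the 10 genes. No entry was given for *Snhg6*. A pyrimidine start was defined as a C followed by at least 4 C or T on the sense strand, beginning within 5 bases of the annotated start. It was present in 5 of 9 hosts (*Gas5*, *Snhg3*, *Snhg8*, *Snhg12* and *Snhg18*) and in 21.2% of 27025 genes with a promoter entry. At the annotated start base itself it was present in *Gas5* and *Snhg8*, that is in 2 of 9 hosts, and in 3.01% of all genes. Within 10 bases *Snhg5* was added, to 6 of 9 hosts and 34.4% of all genes. The windows below run from 10 bases before the start through its first 20 bases, 5′ to 3′, with the run nearest the start in capitals. They are shown because a pyrimidine start is read from these bases.
Gas5, second start (chr1:161035156-161035185, plus strand): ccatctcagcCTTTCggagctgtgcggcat
Snhg8 (chr3:123508317-123508346, minus strand): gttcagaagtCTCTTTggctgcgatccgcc
Snhg12 (chr4:132308668-132308697, plus strand): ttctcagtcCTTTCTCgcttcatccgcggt
Snhg18 (chr15:32244643-32244672, minus strand): cccaggcccCTCCTCTagccccgcctcttc
Snhg3 (chr4:132353667-132353696, minus strand): gaccacgcctgaCTTCCgggcgttacttaa
Snhg1 (chr19:8723477-8723506, plus strand): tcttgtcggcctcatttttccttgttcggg
Snhg5 (chr9:88522878-88522907, minus strand): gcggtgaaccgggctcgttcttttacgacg
Snhg15 (chr11:6528741-6528770, minus strand): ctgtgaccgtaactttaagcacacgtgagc
Snhg11 (chr2:158375703-158375732, plus strand): tgcggcactcactcacgcactcagcctgct
*Gas5* has a further annotated start upstream, without such a run. A match of letters does not show where transcription began in these libraries.

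The libraries held 36544554, 35351031 and 40057435 counts on genes in replicates 1, 2 and 3. Levels are counts scaled to the library's counts on genes with TMM factors (CPM), and a gene at 0 counts may still be present at up to 0.0777, 0.0843 and 0.0796 CPM, with 3 counts per library as the limit for counting error. *Dlx2* was at 235, 201 and 183 CPM. The 7 mesenchyme markers were all present, with a summed level of 1870 to 2561 CPM. The libraries stood apart in other tissue markers. The summed level of 9 neuron markers was 273 CPM in replicate 1 against 24.3 and 35.9 in replicates 2 and 3, that of 5 glia markers 67.7 against 15.8 and 20.4, and that of 7 eye and forebrain markers 25.03 against 158 and 146. Epithelial (264 to 414 CPM), endothelial (178 to 265), erythroid (1947 to 4262), macrophage (22.2 to 34.4) and muscle markers (60.5 to 108) were also counted. *Xist* was at 671 CPM in replicate 1 and under 1 CPM in the others, while 4 Y-linked genes summed to 0 counts in replicate 1 and to 146 and 109 CPM in replicates 2 and 3. In bulk tissue, fewer cells of a type and less RNA per cell cannot be told apart.

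Counts were found for 9 of the 10 host genes, and 8 of these 9 were highest in replicate 3 and lowest in replicate 1. The exception was *Snhg11*, which was highest in replicate 1 and lowest in replicate 2. A chi-square test (2 degrees of freedom, called at a Benjamini-Hochberg adjusted p under 0.05) was run on the 17115 genes whose counts averaged at least 10. It placed all 9 beyond sampling noise, but also 81.5% of all genes tested, so this count does not set the hosts apart. Of all genes tested, 43.2% were highest in replicate 3, 39.6% in replicate 1 and 17.2% in replicate 2, and 39.3% were lowest in replicate 1. A further count, of genes both highest in replicate 3 and beyond sampling noise, came to 36.4%. The test compares libraries and not conditions. Without replicate 3, 6 of 9 hosts were beyond sampling noise, and *Snhg12*, *Snhg15* and *Snhg18* were not, with 48.8% of all genes called.

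**Figure D1:**
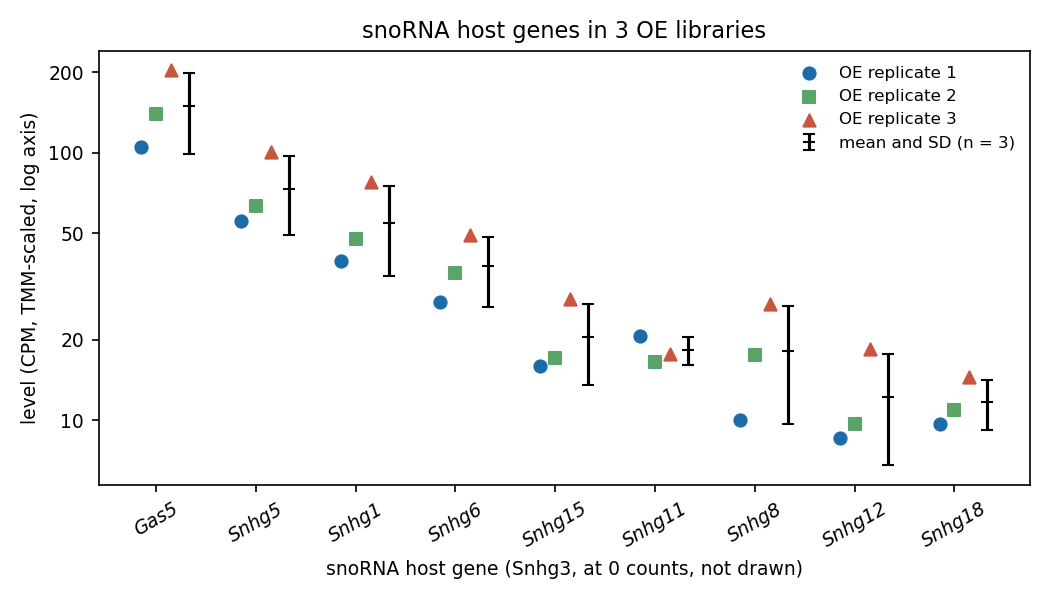
Level of each expressed host gene (CPM with TMM scaling, log axis) in OE replicates 1, 2 and 3 (circle, square and triangle), with the mean and SD over the 3 libraries beside them. Replicate 3 is the highest point for every gene drawn except *Snhg11*, and *Gas5* lies highest in CPM, which is not divided by length, at 105 to 203.

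Among the hosts of box C/D snoRNAs, *Gas5* had the most counts, without regard to length. *Gas5* (ENSMUSG00000053332, chromosome 1 of GRCm38, 161034422 to 161038539, plus strand) was first known as a transcript that accumulates in growth-arrested cells. It had 4042, 4957 and 7652 counts in replicates 1, 2 and 3, or 105, 139 and 203 CPM. The mean was 149 ± 49.9 CPM (SD, n = 3), and the highest library was 1.94 times the lowest. Adjusted p against sampling noise was 1.19e-275. *Snhg1* (ENSMUSG00000108414, chromosome 19, 8723475 to 8726443, plus strand) was at 39.4, 47.5 and 77.6 CPM, with a mean of 54.8 ± 20.1 (SD, n = 3). Replicate 3 was highest in both genes, and replicates 1 and 2 lay closer to each other, more so in *Snhg1* than in *Gas5*.

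*Snhg5* (ENSMUSG00000097195, chromosome 9, 88521050 to 88522929, minus strand), host of the closely related *Snord50a* and *Snord50b*, was at 55.7, 63.5 and 100.4 CPM, and its mean was 73.2 ± 23.9 (SD, n = 3). *Snhg6* (ENSMUSG00000098234, chromosome 1, 9941959 to 9944118, minus strand), host of *Snord87*, was at 27.7, 35.5 and 49.4 CPM. *Snhg18* (ENSMUSG00000096956, chromosome 15, 32240565 to 32244662, minus strand), host of *Snord123*, was at 9.66, 10.9 and 14.5 CPM. These 3 genes had the same library order as *Gas5*, with the highest library 1.80, 1.78 and 1.497 times the lowest. *Snhg18* had the smallest spread of the box C/D hosts, with a coefficient of variation (CV) of 21.4%.

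*Snhg12* (ENSMUSG00000086290, chromosome 4, 132308623 to 132311024, plus strand), which holds snoRNA genes of both kinds, was at 8.55, 9.64 and 18.4 CPM. Its mean was 12.2 ± 5.41 CPM (SD, n = 3), and replicate 3 alone was high. Among the hosts of the ACA kind, *Snhg8* (ENSMUSG00000104960, chromosome 3, 123507552 to 123508404, minus strand) varied most of all 9 expressed hosts. *Snhg8* was at 10.1, 17.5 and 27.1 CPM, so the libraries lay far from each other on both sides. Its mean was 18.2 ± 8.55 CPM (SD, n = 3), its CV 46.9%, and the highest library was 2.696 times the lowest. *Snhg15* (ENSMUSG00000085156, chromosome 11, 6525591 to 6528760, minus strand), host of *Snora9*, was at 15.9, 17.1 and 28.3 CPM, with replicates 1 and 2 close together.

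*Snhg11* (ENSMUSG00000044349, chromosome 2, 158375638 to 158386145, plus strand), known for its expression in brain, had another library order in CPM than the other hosts. It was at 20.7, 16.5 and 17.6 CPM in replicates 1, 2 and 3, with a mean of 18.3 ± 2.14 (SD, n = 3). Replicate 1 was the highest library here, and the CV of 11.7% was the smallest of the 9 expressed hosts. Adjusted p against sampling noise was 0.000133, and without replicate 1 it was 0.301. The neuron markers were highest in replicate 1 in 9 of 9 genes, and the level of *Tubb3*, a neuronal tubulin and the leading one by mean CPM, was 115, 7.64 and 16.9 CPM. Their part in the level of *Snhg11* was not tested. GENCODE M21 types *Snhg11* as protein coding and RefSeq as a long noncoding RNA, while the other 9 hosts are noncoding in both.

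*Snhg3* (ENSMUSG00000085241, chromosome 4, 132348014 to 132353686, minus strand), host of the *Snora73a* and *Snora73b* RNAs that take part in ribosomal precursor cleavage, had 0 counts in every library. Of its 986 exonic bases in GENCODE M21, 71.5% lie opposite exons of *Gm17300*, 13.7% are shared with *Rcc1* on the same strand, and 16.1% with *Snora73a*. Only 135 bases (13.7%) belong to no other annotated gene on either strand. In the other 9 hosts that share was between 79.1% and 100%. The authors' files hold a class of reads left unassigned as ambiguous between genes, with 6.11%, 6.10% and 6.96% of all counted reads. Whether reads of *Snhg3* were among them was not tested. *Gm17300* was at 6.79, 7.87 and 5.68 CPM and *Rcc1*, which encodes a chromatin-bound exchange factor for the GTPase Ran, at 219, 219 and 199 CPM. Whether the count of 0 reflects the level of *Snhg3* RNA was not tested either. *Snhg6* shares 11.1% of its exonic bases with *Mcmdc2* on the opposite strand.

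Levels between genes were compared per kb of exonic length, the union of all annotated exons. *Snhg5* (42.3 ± 13.8 CPM per kb, SD, n = 3) and *Gas5* (39.6 ± 13.3) stood highest on this scale, followed by *Snhg6* at 32.8 and *Snhg8* at 21.3 CPM per kb. *Snhg1* was at 18.5, *Snhg15* at 15.04, *Snhg18* at 7.86, *Snhg12* at 5.08 and *Snhg11* at 2.14 CPM per kb. Within each library the order was the same, except that *Gas5* stood above *Snhg5* in replicate 2 and *Snhg1* above *Snhg8* in replicate 1. Over the 3 libraries together, the ranges of neighbours in this order overlapped, with 2 exceptions. The lowest library of *Snhg15* (11.7 CPM per kb) was above the highest of *Snhg18* (9.74), and the lowest of *Snhg12* (3.56) was above the highest of *Snhg11* (2.42). The scale depends on the gene model, since annotated transcripts with retained introns lengthen the union. With the length of the longest transcript, *Snhg5* (59.9 CPM per kb) stayed ahead of *Gas5* (58.3). *Snhg15*, at 30.3, then stood above *Snhg8* (23.5) and *Snhg1* (20.1). With the median length of the annotated transcripts (629 bases for *Gas5*), *Gas5* led at 237 CPM per kb, ahead of *Snhg1* at 91.0 and *Snhg5* at 88.0. On that scale *Snhg11* was at 13.7 and *Snhg12* at 13.3 CPM per kb, so the order of this pair turned, and *Snhg18* was lowest at 7.86.

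To describe how the hosts moved together, log2(CPM + 1) in 1 library was set against the mean of the other 2. This scale understates the change of low genes. The median over the 9 expressed hosts was 0.75 in replicate 3, −0.58 in replicate 1 and −0.20 in replicate 2. Without replicate 3, the values were −0.19 in replicate 1 and 0.19 in replicate 2, and without replicate 1 the value in replicate 2 was −0.60, so the direction in replicate 2 depends on the libraries it is set against. Over all genes tested, the median was −0.02, 0.01 and 0.01 in the same libraries. The median CV of the hosts was 33.5%, and that of all genes tested 27.0%. Set against genes of like exonic length, 3 of 9 hosts (*Gas5*, *Snhg1* and *Snhg12*) had a CV above the median of their range. Without replicate 3 the median CV was 13.3% for the hosts and 10.8% for all genes.

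Short genes as a whole were higher in replicate 3. Among genes of up to 1000 exonic bases, 69.8% were highest there, against 51.5% of those over 2000 and up to 4000 bases and 14.4% of those over 8000 bases. The hosts were therefore set beside genes of like length. *Gas5*, *Snhg1* and *Snhg12* were at log2 differences of 0.75, 0.83 and 0.95 in replicate 3, where genes over 2000 and up to 4000 bases had a median of 0.11 and an upper quartile of 0.49. *Snhg5*, *Snhg15* and *Snhg6* were at 0.75, 0.75 and 0.64 and *Snhg18* at 0.46, where genes over 1000 and up to 2000 bases had a median of 0.34 and an upper quartile of 0.76. *Snhg8*, at 0.98, was above the upper quartile of 0.77 of genes of up to 1000 bases. *Snhg11*, the longest host, was at −0.06, above the upper quartile of −0.14 of genes over 8000 bases. By exonic length, all 9 expressed hosts thus lay above the median of their range in replicate 3, and 5 of them above its upper quartile. With the median transcript length in its place, 8 of 9 lay above the median and 7 above the upper quartile, and *Snhg11* lay below the median of its range, at −0.06 against 0.01. When a smooth curve on exonic length and on GC content had been subtracted, the hosts' median was 0.69 in replicate 3 and that of all genes −0.01. *Snhg15* and *Snhg18* were then lowest at 0.28 and 0.29, and *Snhg1* and *Gas5* highest at 1.05 and 1.02. *Snhg11* was then at −0.10, −0.34 and 0.44 in replicates 1, 2 and 3, so that it too was highest in replicate 3. With the median transcript length in the curve, *Snhg11* was at 0.16, −0.25 and 0.09 and again highest in replicate 1.

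**Figure D2:**
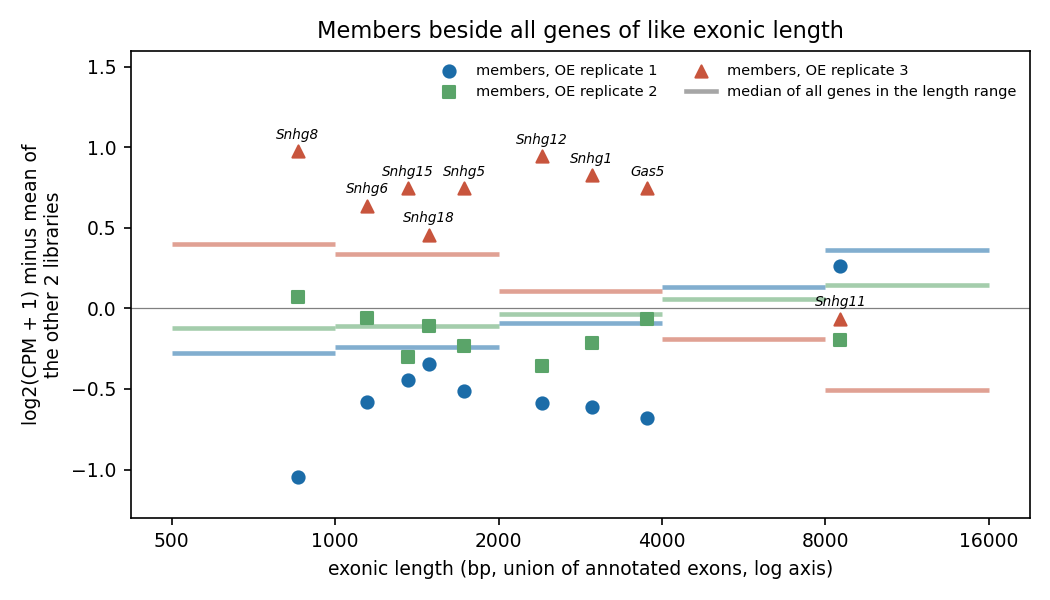
Log2(CPM + 1) of each expressed host in 1 OE library minus the mean of the other 2 (vertical axis), against exonic length in bp (log axis). Horizontal lines in the same colours are the medians of all genes tested in 5 length ranges, and all 9 triangles of replicate 3 lie above the line of their range, for example 0.75 for *Gas5* against 0.11.

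Other parts of the snoRNA pathway were described from lists. Of 11 other noncoding hosts, 8 were matched by name and 7 had a mean count of at least 10, all 7 beyond sampling noise (81.5% of all genes). Of these, 6 of 7 were highest in replicate 3 (43.2% of all genes), with a list median of 0.89 on the log2 scale there, or 0.54 with the trend on length and GC removed. *Snhg17*, with the highest mean CPM, was at 51.4, 54.3 and 69.8 CPM, and *Snhg20*, with the largest ratio between libraries, at 16.7, 24.6 and 45.9 CPM. *Snhg14*, the long transcript of the Prader-Willi region, was the exception and lowest in replicate 3, at 24.0, 21.8 and 17.8 CPM. It has 26093 exonic bases, and its log2 difference there was −0.34, where genes over 8000 bases had a median of −0.51.

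Of the protein-coding genes that hold snoRNA genes, 217 were tested and 68 were highest in replicate 3 (43.2% of all genes). Their median log2 difference there was −0.26, or 0.02 with the trend on length and GC removed. A split by ribosomal protein genes, which was not planned, gave unlike sets. Ribosomal protein genes with a snoRNA gene inside them were highest in replicate 3 in 30 of 30 cases, with a median log2 difference of 1.08, or 0.88 with the trend on length and GC removed. The other protein-coding hosts were highest there in 38 of 187 cases, with a median of −0.35, or −0.10 with the trend removed. *Rps2* had the highest mean CPM of the ribosomal protein hosts, at 2789, 3760 and 5713 CPM, and *Rpl13a* the largest ratio, at 6.87, 9.50 and 22.7 CPM. Of the others, *Eef2*, a translation elongation factor with the highest mean CPM, was at 3697, 4035 and 4270 CPM, and *Tsr1*, a ribosome maturation factor with the largest ratio, was lowest in replicate 3 at 57.3, 52.5 and 12.6 CPM. Over all ribosomal protein genes, 84 of 84 tested were highest in replicate 3, with a median of 1.16, and *Rps15* had the largest ratio at 493, 714 and 1968 CPM. By list median, the noncoding hosts thus lay on the side of the ribosomal protein genes in replicate 3. *Snhg11* (−0.06) and *Snhg14* (−0.34) did not. Short genes as a whole also lay on that side, with 69.8% of those of up to 1000 exonic bases highest there. Without replicate 1, the hosts' median log2 difference between replicates 3 and 2 was 0.60, with no median of all genes set beside it. Replicate 1 differed from the others in the sex-linked genes and in the neuron, glia and eye markers. Its marker sum was also lower for erythroid genes (1947 against 3633 and 4262 CPM) and higher for epithelium (414 against 264 and 267). Marker sums also differed between replicates 2 and 3, with mesenchyme at 1932 and 2561 CPM, of which *Barx1* alone held 409 and 928, endothelium at 265 and 178, neuron at 24.3 and 35.9 and glia at 15.8 and 20.4 CPM. The part of sex and of these cell types in the hosts' levels was not tested.

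Proteins that bind or assemble snoRNAs were mixed. Of the 18 listed, 15 were beyond sampling noise, near the 81.5% of all genes, and 11 were highest in replicate 3 (43.2% of all genes), with a list median of 0.07. When only total counts were used for scaling, 8 were highest there (37.7% of all genes) and the median was −0.06. With the upper quartile 13 were highest there (49.3% of all genes). *Fbl*, which encodes fibrillarin, was at 276, 303 and 523 CPM, and *Nop56*, a box C/D core protein with the highest mean CPM of the list, at 350, 385 and 567. *Pih1d1*, an assembly factor with the largest ratio, was at 41.0, 58.2 and 140 CPM. *Dkc1*, which encodes dyskerin, was lowest in replicate 3, at 229, 217 and 135 CPM, while *Snu13*, a box C/D core protein, was at 164, 168 and 162 and within sampling noise.

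The nonsense-mediated decay factors were beyond sampling noise in 9 of 10 cases and highest in replicate 3 in 4 of 10, which is near the 81.5% and 43.2% of all genes. *Upf1*, the central helicase, was at 232, 250 and 289 CPM and *Smg9* at 26.8, 33.5 and 66.0, while *Smg1*, the kinase that acts on UPF1, was lowest in replicate 3 at 124, 105 and 62.0. Of 7 genes that control mRNAs with a pyrimidine start, all 7 were beyond sampling noise and 2 were highest in replicate 3, where all genes gave 81.5% and 43.2%. *Eif4ebp2*, a translation repressor under mTOR, was at 371, 338 and 222 CPM, and *Rps6kb2*, an S6 kinase, at 39.0, 49.0 and 90.6.

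**Figure D3:**
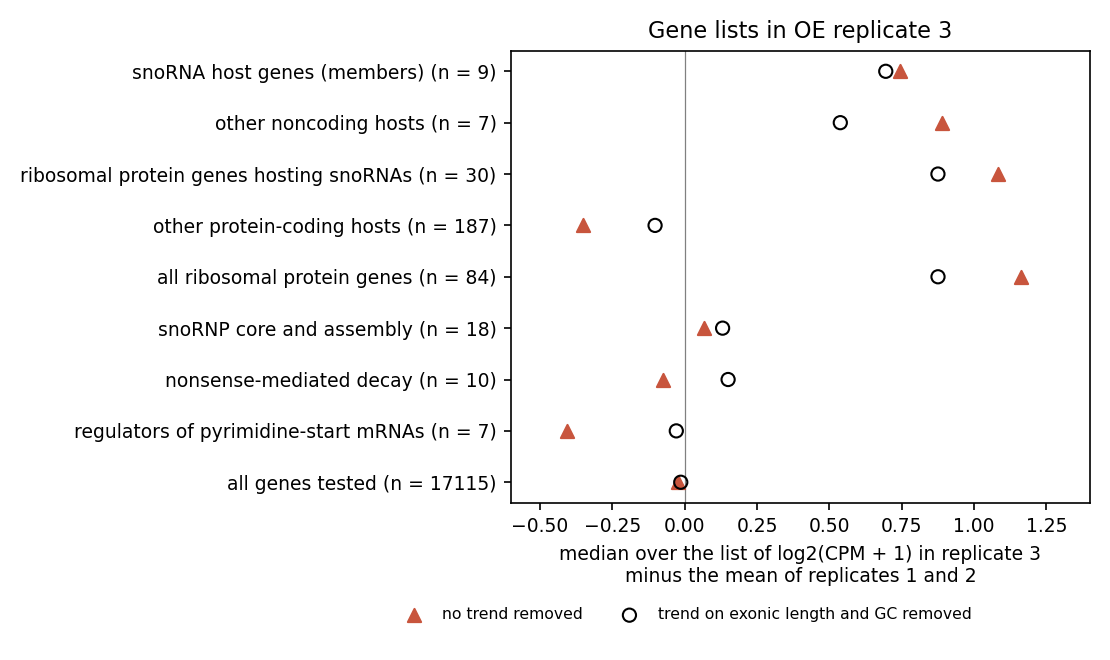
Median over each gene list of log2(CPM + 1) in OE replicate 3 minus the mean of replicates 1 and 2, without (triangle) and with (open circle) removal of a trend on exonic length and GC content. The median of the 9 expressed hosts (0.75 and 0.69) stands on the side of that of the ribosomal protein genes (1.16 and 0.88). That of protein-coding hosts other than ribosomal protein genes stands at −0.35 and −0.10.

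The snoRNA genes inside the hosts gave a second readout at the same loci. The libraries were made from RNA selected with poly-T beads, and mature snoRNAs carry no poly(A) tail, so these counts are no measure of snoRNA abundance. Of the 33 snoRNA genes, 23 had at least 1 count, and 8 had a mean count of at least 10. Counts on the 10 snoRNA genes of *Gas5* summed to 375, 427 and 330 in replicates 1, 2 and 3, equal to 9.28%, 8.61% and 4.31% of the counts on *Gas5* itself. Those of *Snhg1* summed to 52, 54 and 84, equal to 3.42%, 3.19% and 2.87% of its own counts. In the other expressed hosts the sum was at most 12 counts in any library.

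Within *Gas5* the snoRNA genes differed in which library was high. *Gm26224*, the first along the gene, was at 3.29, 3.37 and 1.38 CPM in replicates 1, 2 and 3. *Gm22357* was at 2.67, 3.85 and 2.34 CPM and *Gm23212* at 1.63, 2.22 and 1.43, so all 3 were lowest in replicate 3, in which *Gas5* was highest. *Snord78* was at 1.48, 1.66 and 2.02 CPM, and *Snord47*, the last of the 5 along the gene, at 0.389, 0.534 and 1.11, both highest in replicate 3. Adjusted p against sampling noise was 3.54e-08 for *Gm26224*, 0.00058 for *Gm22357*, 0.0388 for *Gm23212* and 0.000405 for *Snord47*, but 0.21 for *Snord78*, which was within it. The 3 snoRNA genes of *Snhg1* with a mean count of at least 10 (*Gm24453*, *Gm22680* and *Gm23246*) were within sampling noise, with adjusted p from 0.11 to 0.849. Both annotated copies of *Snord80* in *Gas5*, which overlap each other, were at 0 counts in every library. In GENCODE M21 exons of *Gas5* transcripts cover all 10 of its snoRNA genes in full. The annotation and overlap setting behind the counts are not given in the sources used here, so how a fragment lying on both was assigned is not known.

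**Figure D4:**
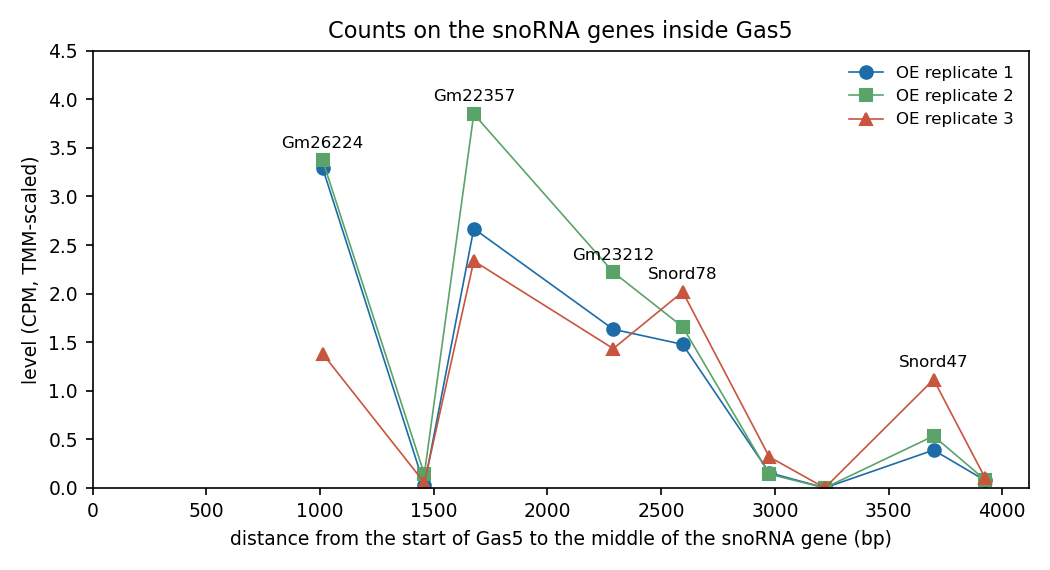
Level (CPM with TMM scaling) of the snoRNA genes inside *Gas5*, against the distance in bp from the start of *Gas5* to the middle of each snoRNA gene, in OE replicates 1, 2 and 3; names are given for the 5 with a mean count of at least 10. Replicate 3 is the lowest point for the 3 named genes nearest the start and the highest for *Snord78* and *Snord47*.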

How the data were processed

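Bulk RNA-Seq of E10.5 maxillary processes (poly-T selection, 150 bp paired-end reads) was analysed for 3 OE libraries, the group given by the genotype label. The authors deposited raw counts per gene as whole numbers without normalization. The submitters' processing notes name STAR 2.7.3a, HTSeq 0.12.4, FastQC and mm10. The annotation release and strand setting are not given in the sources used here, and the library kit does not mark strand, so reads of a gene and an antisense partner cannot be told apart. Rows that name no gene were left out (14.2%, 15.7% and 16.4% of reads in the 3 files).

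Identifiers were matched to GENCODE M21 without the version: 55141 of 55401 matched. Exonic length, shared bases and snoRNA genes inside hosts came from that annotation, promoters from RefSeq. CPM used edgeR 4.0.16 with TMM scaling. Counts were tested against sampling noise by a chi-square test with Benjamini-Hochberg adjustment over the 17115 genes whose counts averaged at least 10. The design holds 1 group, so a test between conditions was not made. A trend on exonic length and GC content of the longest transcript was fitted with mgcv 1.9.3. DESeq2 1.42.0 gave alternative size factors. R 4.3.3, Python 3.11.15 and pandas 2.3.3 were used, and the chi-square step was tested on simulated data.

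The host genes and the lists were chosen with earlier results of these data known. Genes were named by rule: every host, every snoRNA gene inside a host whose counts averaged at least 10, and of each pathway list the gene with the highest mean CPM and, where counts averaged at least 100, the gene whose highest and lowest library differed most. *Fbl*, *Dkc1*, *Snu13*, *Smg1*, *Snhg14*, *Barx1* and the genes that overlap *Snhg3* or *Snhg6* were named after their values were seen. The alternatives were other scalings, no filter on low counts, another pseudocount, other lengths, removal of the trend, and each replicate left out in turn. The median transcript length and the removal of *Snhg11* were added after the data were seen.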

Additional observations from a re-analysis of the deposited data

How the results depend on the processing

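The 26 results were recomputed to give 125 alternative values, of which 105 differed from the value given by less than 1 SD between replicates (for counts, by at most 1.5 times) and 1 changed sign (replicate 2, below). Of the 20 that moved, 14 were levels per kb with another gene length. Leaving out each replicate in turn, the hosts' median log2 difference ran from −0.84 to −0.19 in replicate 1 and from −0.60 to 0.19 in replicate 2, where the lowest value came without replicate 1 and the positive one without replicate 3. In replicate 3 it ran from 0.60 to 0.84. The median CV ran from 13.3% without replicate 3 to 40.4% without replicate 2, the number of hosts beyond sampling noise from 6 to 9, and the number of snoRNA genes with counts from 21 to 23. With a mean count of at least 10, 8 snoRNA genes remained in place of 23. With the match at the annotated start base itself, 2 hosts had a pyrimidine start in place of 5. Scaling by total counts shifted the log2 difference of each gene by a median of −0.12 in replicate 3 and 0.11 in replicate 1, and the upper quartile shifted it by a median of 0.12 in replicate 3. Under TMM, DESeq2, total count and upper quartile scaling, 8 of 9 hosts were highest in replicate 3. The share of all genes highest there was 43.2%, 44.0%, 37.7% and 49.3% in the same order. The smallest difference of these 8 hosts was from 0.33 to 0.58. The value of *Snhg11* in replicate 3 was −0.19 to −0.05 with 3 of the scalings and 0.06 with the upper quartile. No paired analysis was possible because the labels give 1 group. The snoRNA genes inside the hosts other than *Gas5* and *Snhg1* had mean counts under 10 and were not tested for a difference between libraries.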

Other observations

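Of the 1507 snoRNA genes listed, 326 had at least 1 count and 99 a mean count of at least 10, so the 8 such snoRNA genes inside the hosts are a small part of those counted in these poly-T selected libraries.

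The tested genes with a promoter entry were split by a pyrimidine start at the annotated start base. The 364 genes with such a start had a median log2 difference of −0.01 in replicate 3 and 42.0% of them were highest there. The 11261 genes without it had a median of −0.06, with 41.2% highest there. The median exonic length was 3992 and 4376 bases.

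*Snhg8*, the host with the largest ratio between libraries, was compared with the 11859 genes whose counts averaged at least 100 by the distance between their 3 log2 levels around their own mean. The nearest were *Asphd2* (33.3, 59.0 and 89.6 CPM), *Slc38a3* (7.64, 13.5 and 21.3) and *4933408B17Rik* (1.66, 2.75 and 4.38), at distances of 0.0229, 0.0333 and 0.0469, and 14 genes lay within 0.1. With 3 libraries this likeness is a description only.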
